A study of Mus musculus with 6 samples.

Results

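*Ptgs1*, *Ptgs2*, *Ptges*, *Ptgis*, *Ptger2*, *Ptger4*, *Alox5*, *Alox5ap*, *Alox15* and *Ltb4r1* belong to the cyclooxygenase and lipoxygenase pathways of arachidonic acid. They were chosen by name as enzymes and receptors of prostaglandins and leukotrienes, with earlier results of these data known. All 10 were among the 18089 genes measured. RNA came from the ischemic gastrocnemius, a calf muscle, of 3 WT and 3 GPR174-KO mice 7 days after hindlimb ischemia (HLI), for which the left femoral artery was tied and a segment was removed. All mice were male C57BL/6, and by the methods 8 to 10 weeks old. The GPR174-KO mice were *Gpr174*-/Y, lacking the X-linked receptor GPR174 in every cell rather than in one lineage, and the study calls the control mice littermates. All 6 samples are from the ligated limb, so each value describes injured muscle. Each library is bulk tissue, in which fewer cells of a type and less RNA per cell cannot be told apart.

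Phospholipase A2 frees arachidonic acid from membranes. The cyclooxygenases, *Ptgs1* (present in most tissues) and *Ptgs2* (induced by injury and cytokines), turn it into prostaglandin H2, from which *Ptges* makes prostaglandin E2 (PGE2) and *Ptgis* makes prostacyclin. PGE2 acts on macrophages, vessels and muscle stem cells through receptors that include EP2 (*Ptger2*) and EP4 (*Ptger4*), both of which raise cyclic AMP. In leukocytes, 5-lipoxygenase (*Alox5*) and its activating protein FLAP (*Alox5ap*) instead lead to leukotriene A4, which is converted to leukotriene B4, a chemoattractant that binds the receptor BLT1 (*Ltb4r1*). *Alox15* encodes the 12/15-lipoxygenase, known from resident macrophages and eosinophils.

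The sequences around the start sites are shown for the genes that rose in the GPR174-KO muscles and had an entry (*Ptges*, *Ptger2*, *Ptger4* and *Alox5*), and for *Ptgs2*, the inducible gene of the pathway. Each run holds 250 bases before and 50 bases after the start site, 5′ to 3′ on the gene's strand, from RefSeq on GRCm38.p6. They lie at chr1:150099781-150100080 (plus strand), chr2:30903248-30903547 (minus strand), chr14:44987861-44988160 (plus strand), chr15:5244138-5244437 (minus strand) and chr6:116461129-116461428 (minus strand), and each spans the upstream flank and the start of the first exon. Capitals mark matches to the motifs searched.
Ptgs2: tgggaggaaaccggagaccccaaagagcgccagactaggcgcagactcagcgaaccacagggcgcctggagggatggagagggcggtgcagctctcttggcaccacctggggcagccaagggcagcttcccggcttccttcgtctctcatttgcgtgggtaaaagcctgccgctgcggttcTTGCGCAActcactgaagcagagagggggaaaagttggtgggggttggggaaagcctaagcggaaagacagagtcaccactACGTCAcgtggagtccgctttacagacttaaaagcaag
Ptges: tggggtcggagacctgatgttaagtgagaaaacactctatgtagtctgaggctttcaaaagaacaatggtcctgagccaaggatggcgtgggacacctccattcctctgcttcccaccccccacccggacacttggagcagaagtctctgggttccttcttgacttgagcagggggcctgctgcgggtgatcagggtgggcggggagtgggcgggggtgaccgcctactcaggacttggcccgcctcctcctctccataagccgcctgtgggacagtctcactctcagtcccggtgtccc
Ptger2: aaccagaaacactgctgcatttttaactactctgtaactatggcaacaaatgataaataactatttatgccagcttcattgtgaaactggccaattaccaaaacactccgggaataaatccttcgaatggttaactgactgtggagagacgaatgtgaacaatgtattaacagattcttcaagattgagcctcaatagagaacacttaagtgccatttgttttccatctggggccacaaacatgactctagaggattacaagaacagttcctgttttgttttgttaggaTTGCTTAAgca
Ptger4: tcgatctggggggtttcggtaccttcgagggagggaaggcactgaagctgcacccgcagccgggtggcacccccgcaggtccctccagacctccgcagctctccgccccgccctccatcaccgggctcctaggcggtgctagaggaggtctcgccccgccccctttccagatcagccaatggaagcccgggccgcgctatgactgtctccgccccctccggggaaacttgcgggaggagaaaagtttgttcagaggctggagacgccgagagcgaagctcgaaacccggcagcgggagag
Alox5: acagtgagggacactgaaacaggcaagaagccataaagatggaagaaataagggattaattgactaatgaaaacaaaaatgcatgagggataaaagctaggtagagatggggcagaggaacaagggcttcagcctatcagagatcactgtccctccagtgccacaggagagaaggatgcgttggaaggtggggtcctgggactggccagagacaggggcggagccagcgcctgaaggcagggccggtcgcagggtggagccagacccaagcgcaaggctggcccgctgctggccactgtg
Of the 10 genes, 7 had an entry, and *Ptgis*, *Alox5ap* and *Alox15* had none. The letters searched on both strands were TGACGTCA (cAMP response element), TGACGT (its short form), GCGNGGGCG (EGR1), GGANTTTCC (NF-kB), TTGCNNAA (C/EBP), TGANTCA (AP-1) and, for the TATA box, TATAAA, and any full cAMP response element also holds the short form. The *Ptgs2* window held TTGCGCAA, a C/EBP match that begins 69 bases upstream of the start site, and ACGTCA, the short cAMP element read on the minus strand, which begins 13 bases downstream. The *Ptger2* window held 1 C/EBP match, TTGCTTAA, which begins 40 bases downstream. The other 5 windows, of *Ptgs1*, *Ptges*, *Ptger4*, *Alox5* and *Ltb4r1*, held no match. Among all 32851 windows in the same table, 10.8% held the C/EBP letters and 7.51% the short cAMP element, against 1.79% for the full element, 5.55% for EGR1, 1.25% for NF-kB, 7.81% for AP-1 and 13.6% for the TATA box. These matches are a description of letters. Of the genes that rose in the GPR174-KO muscles and had an entry, only *Ptger2* held a match, and *Alox5ap* could not be searched.

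The knockout itself was checked first. WT replicates 1, 2 and 3 held 8, 2 and 5 counts of *Gpr174*, and GPR174-KO replicates 1, 2 and 3 held 1, 0 and 0. These counts were too low for edgeR's expression filter, and a fit of all genes with a count gave a log2 fold change of -3.76 (edgeR quasi-likelihood test, adjusted p = 0.0176), in the direction of the labels. Total counts were 18417077 to 18695013 per WT library and 19173036 to 19394469 per GPR174-KO library, and 3 counts, taken as the smallest detectable number, came to 0.139 to 0.187 CPM (counts scaled to a common library total after TMM), for counting error only. The groups differed widely, and 54.6% of the 14395 genes tested passed an adjusted p of 0.05, with 27.0% of all tested genes higher and 27.6% lower in the GPR174-KO muscles (3891 and 3972 genes). With total counts in place of TMM, a scaling that moved the median log2 fold change up by 0.27, 7303 genes were higher and 2010 lower. Among 7650 genes with a mean of at least 20 CPM, replicate 2 was the middle library for 79.8% among WT and 70.9% among GPR174-KO libraries, while each other library was in the middle for 9.05% to 16.5%. Neither the labels nor the methods give a batch. Whether replicate 2 of each group is an independent library could not be settled from the files, and each n = 3, SE and adjusted p takes it as one. Values are therefore given for each library, and each call among the 10 genes is also given for replicates 1 and 3 of each group alone.

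The 14 markers of mature muscle fibres, the cells that define the tissue, were all lower in the GPR174-KO muscles, and their summed level in TPM (transcripts per length, scaled to a common total) was 176800 to 218100 in the WT libraries and 95180 to 105500 in the GPR174-KO libraries. Of 8 macrophage and monocyte markers, 7 were higher, and their summed level was 271 to 511 TPM in the WT libraries and 936 to 1092 TPM in the GPR174-KO libraries. Within the WT group replicate 1 had the lowest macrophage sum and replicate 3 the highest, an order that several of the 10 genes shared. The summed neutrophil markers and the summed T cell markers had this order too, so it is not particular to macrophages. The part of cell composition in the results below was not tested. TPM values of the tested genes were higher in the GPR174-KO libraries by a median of 0.39 on the log2 scale. Fold changes were therefore taken from counts scaled by TMM, a method that centres the bulk of genes (median log2 fold change 0.00), and TPM was used to compare levels between genes.

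Of the 10 prostaglandin and leukotriene genes, 5 rose in the GPR174-KO muscles and none passed the test in the lower direction. The 5 were *Ptges*, *Ptger2*, *Ptger4*, *Alox5* and *Alox5ap*, that is 1 PGE2 synthase, the PGE2 receptors EP2 and EP4 and both parts of the 5-lipoxygenase step. *Ptgs1*, *Ptgs2*, *Ptgis*, *Alox15* and *Ltb4r1* did not pass. With total counts in place of TMM 7 of the 10 genes were higher and 0 lower, *Ptgis* and *Ltb4r1* being added. Under that scaling 7303 of the 14395 genes tested were higher and 2010 lower. The median log2 fold change of the 10 genes was 0.54, against 0.00 for all genes tested. The 5 higher genes of 10 stand beside 27.0% of all tested genes that were higher, and 5 of 10 called in either direction stand beside 54.6%. The 10 genes were chosen with earlier results of these data known, so these shares are a description and carry no test. *Ptger2* and *Alox5* also had a log2 fold change above 1, where 3.45% of all tested genes were that much higher. In 6 of the 10 genes, the 5 called and *Ltb4r1*, each GPR174-KO library was above each WT library in CPM, beside 33.1% of all tested genes. All 10 genes passed the filter on low counts, but *Ptger2* reached its minimum of 0.528 CPM in the 3 GPR174-KO libraries and in 0 WT libraries, and *Ltb4r1* in 3 GPR174-KO libraries and 1 WT library. With the filter removed 5 of the 10 genes were again called, all higher. With replicates 1 and 3 of each group alone, 0 of the 10 genes and 0 of the 14447 genes tested in that fit had an adjusted p under 0.05. In the same fit 2 of the 10 genes and 5026 of all genes had an unadjusted p under 0.05. The number called among the 10 genes fell to 2 without WT replicate 2, to 3 without GPR174-KO replicate 2 and to 3 without GPR174-KO replicate 3.

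**Figure D1:**
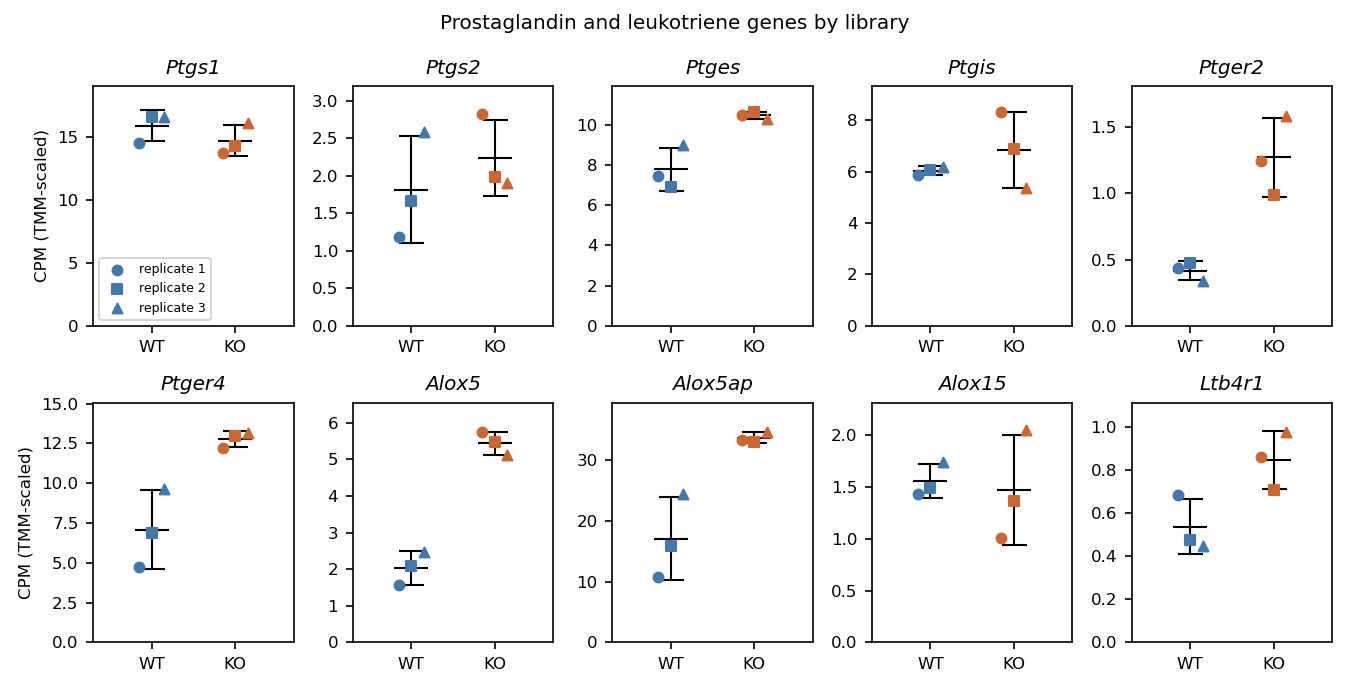
TMM-scaled CPM (vertical axes, starting at 0) of the 10 genes in each library, with replicates 1, 2 and 3 of WT (blue) and GPR174-KO (orange) as circles, squares and triangles, and the mean with 1 SD as black bars. *Ptger2*, *Alox5*, *Alox5ap*, *Ptger4*, *Ptges* and *Ltb4r1* show no overlap between the groups, and WT replicate 3 lies highest of the WT libraries for *Alox5ap*, *Ptger4* and *Alox5*.

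Neither cyclooxygenase, the first committed step to the prostaglandins, passed the test. *Ptgs1* had 14.5, 16.6 and 16.6 CPM in WT replicates 1, 2 and 3 and 13.8, 14.3 and 16.1 CPM in GPR174-KO replicates 1, 2 and 3. The groups overlapped, and the log2 fold change was -0.11 (SE 0.0901, adjusted p = 0.324), with a 95% interval from -0.33 to 0.10. The direction depended on the scaling: it was 0.16 with total counts in place of TMM, and in TPM, which moved up for most genes, the GPR174-KO libraries (7.19 to 8.96) lay above the WT libraries (4.95 to 6.72). *Ptgs1* was split over 7 transcript models. The curated one carried 43% to 48.2% of its counts in the WT libraries and 54.7% to 56.2% in the GPR174-KO libraries. The rest lay on predicted models with implied effective lengths of 8870 to 11600 bases, against 2820 for the curated one. The TPM of *Ptgs1* therefore also depends on this split.

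*Ptgs2* was low, with 19, 28 and 46 counts in the WT libraries (replicates 1, 2 and 3) and 59, 42 and 41 counts in the GPR174-KO libraries in the same order. In CPM this was 1.18, 1.67 and 2.59 against 2.82, 1.98 and 1.91. WT replicate 3 lay above GPR174-KO replicates 2 and 3, so the groups overlapped. The log2 fold change was 0.29 (SE 0.30, adjusted p = 0.445), and its 95% interval from -0.43 to 1 spans a decrease as well as an increase. The ratio of *Ptgs2* to *Ptgs1* within a library, from TPM, was 0.118 ± 0.0356 (SD, n = 3) in WT and 0.145 ± 0.0429 (SD, n = 3) in GPR174-KO muscles, so the inducible enzyme was the minor transcript in all 6 libraries. The difference between the groups was not past the test (2-sided exact permutation test, p = 0.4, adjusted p = 0.4 over 3 ratios, where 3 against 3 cannot go below 0.1).

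Of the terminal synthases *Ptges* passed the test and *Ptgis* did not, a difference that was itself not tested. *Ptges*, which acts after the cyclooxygenases to give PGE2, had 7.47, 6.90 and 8.99 CPM in WT replicates 1, 2 and 3 and 10.5, 10.6 and 10.3 CPM in GPR174-KO replicates 1, 2 and 3. Every GPR174-KO library was above every WT library, and the GPR174-KO libraries lay close together. This was a log2 fold change of 0.42, or 1.34-fold (SE 0.107, adjusted p = 0.0146). The adjusted p was 0.0551 without WT replicate 2, 0.0578 without GPR174-KO replicate 2 and 0.211 with replicates 1 and 3 alone.

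*Ptgis*, the prostacyclin synthase of vessel walls, had 5.85, 6.07 and 6.18 CPM in WT replicates 1, 2 and 3 and 8.32, 6.88 and 5.35 CPM in GPR174-KO replicates 1, 2 and 3. The WT libraries agreed closely, whereas the GPR174-KO libraries spread 1.55-fold and replicate 3 lay below the whole WT range. The log2 fold change was 0.18 (SE 0.164, adjusted p = 0.381), with a 95% interval from -0.21 to 0.57. With total counts in place of TMM the log2 fold change was 0.45 and passed the test (adjusted p = 0.0413), so the call rests on the scaling. Of 8 endothelial markers, 7 were lower and 1, *Vwf*, was higher in the GPR174-KO muscles, and their summed level was 488 to 530 TPM in the WT libraries and 404 to 424 TPM in the GPR174-KO libraries.

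The genes of the PGE2 receptors EP2 and EP4 rose. *Ptger2*, which encodes EP2, had 7, 8 and 6 counts in the WT libraries (replicates 1, 2 and 3) and 26, 21 and 34 counts in the GPR174-KO libraries in the same order. That was 0.436, 0.476 and 0.337 CPM against 1.24, 0.989 and 1.58 CPM, so every GPR174-KO library was above every WT library. The log2 fold change was 1.60, or 3.04-fold (SE 0.279, adjusted p = 0.00378, 95% interval 0.94 to 2.27), and the counts behind it were few. Since *Ptger2* entered the test only through the GPR174-KO libraries, the value with the filter removed stands beside it, a log2 fold change of 1.61 (adjusted p = 0.00352). The WT counts of 6 to 8 stood above the smallest detectable number of 3 by a small margin. With replicates 1 and 3 alone the log2 fold change was 1.86 and the adjusted p was 0.0574.

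*Ptger4*, which encodes EP4, had 4.73, 6.85 and 9.67 CPM in WT replicates 1, 2 and 3 and 12.2, 13.0 and 13.2 CPM in GPR174-KO replicates 1, 2 and 3. The WT libraries spanned 2.04-fold and the GPR174-KO libraries 1.08-fold, and the groups did not overlap. This gave a log2 fold change of 0.84, or 1.80-fold (SE 0.22, adjusted p = 0.0163). The adjusted p rose above the threshold without WT replicate 2 (0.0607), without GPR174-KO replicate 2 (0.0532) and without GPR174-KO replicate 3 (0.0548), and was 0.154 with replicates 1 and 3 alone. *Ptger4* reads lay on a pair of curated transcripts, one of which was at 0 in WT replicates 1 and 2 and held 24.8% to 35.9% of the counts in the other 4 libraries.

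Between these receptors, *Ptger4* was the more abundant transcript in every library. The *Ptger4* to *Ptger2* ratio in TPM was 11.4, 16.4 and 20.7 in WT replicates 1, 2 and 3 and 10.3, 12.2 and 8.52 in GPR174-KO replicates 1, 2 and 3. The ranges overlapped, since WT replicate 1 lay below GPR174-KO replicate 2. The log2 difference of -0.62 was not past the test (2-sided exact permutation test, p = 0.2, adjusted p = 0.3 over 3 ratios).

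The 5-lipoxygenase step rose in both of its parts. *Alox5* had 25, 35 and 44 counts in the WT libraries (replicates 1, 2 and 3) and 120, 116 and 110 counts in the GPR174-KO libraries in the same order, all on 1 transcript. In CPM the WT libraries held 1.56, 2.08 and 2.47 and the GPR174-KO libraries 5.73, 5.46 and 5.12, with more than the whole WT range between the groups. The log2 fold change was 1.41, or 2.65-fold (SE 0.163, adjusted p = 0.0012, 95% interval 1.02 to 1.79), the lowest adjusted p of the 10 genes. *Alox5* kept an adjusted p of at most 0.0101 when any single library was left out, and had 0.0548 with replicates 1 and 3 alone.

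*Alox5ap*, whose product FLAP presents arachidonic acid to the enzyme, had 10.8, 15.9 and 24.3 CPM in WT replicates 1, 2 and 3 and 33.3, 33.0 and 34.7 CPM in GPR174-KO replicates 1, 2 and 3. Each GPR174-KO library was above each WT library, and the highest library stood 2.25-fold above the lowest in the WT group and 1.05-fold in the GPR174-KO group. Its log2 fold change was 0.98, or 1.97-fold (SE 0.249, adjusted p = 0.015). The adjusted p was 0.0588 without WT replicate 2, 0.0515 without GPR174-KO replicate 3 and 0.145 with replicates 1 and 3 alone. The fold change itself ranged from 0.75 to 1.34 on the log2 scale over the libraries left out.

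Per length, *Alox5ap* exceeded *Alox5* in every library. The *Alox5ap* to *Alox5* ratio in TPM was 20.1, 22.1 and 28.4 in WT replicates 1, 2 and 3 and 16.7, 17.4 and 19.5 in GPR174-KO replicates 1, 2 and 3. The groups did not overlap, and the exact permutation test gave p = 0.1 (2-sided), the smallest value that 3 against 3 can give, and 0.3 after adjustment over 3 ratios, which is not past the threshold.

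Leukotriene B4's receptor gene *Ltb4r1* had 11, 8 and 8 counts in the WT libraries (replicates 1, 2 and 3) and 18, 15 and 21 counts in the GPR174-KO libraries in the same order. In CPM this was 0.685, 0.476 and 0.450 against 0.860, 0.706 and 0.977, and the lowest GPR174-KO library lay just above the highest WT library. The log2 fold change of 0.66 (SE 0.256, adjusted p = 0.0735) did not pass the test, and its 95% interval ran from 0.06 to 1.27. It passed without WT replicate 1 (0.87, adjusted p = 0.0487) and with total counts in place of TMM (0.93, adjusted p = 0.0147). *Alox15* had 1.43, 1.49 and 1.74 CPM in WT replicates 1, 2 and 3 and 1.00, 1.37 and 2.05 CPM in GPR174-KO replicates 1, 2 and 3, and the GPR174-KO libraries enclosed the WT range. Its log2 fold change was -0.08 (SE 0.276, adjusted p = 0.827), and was 0.19 with total counts, with a 95% interval from -0.73 to 0.58 in the TMM fit. The *Alox15* reads were assigned to 1 predicted transcript whose effective length, as implied by the values, was 17200 bases against 2770 for *Alox5*, which lowers its level per length. Whether its counts also hold reads of other sequence was not tested.

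Per length, *Alox5ap* stood far above the other genes, with 30.6 ± 13.8 TPM (SD, n = 3) in WT and 78.3 ± 4.44 TPM in GPR174-KO muscles. In the WT muscles *Ptgis* (5.90 ± 0.544 TPM) and *Ptgs1* (5.87 ± 0.887 TPM) followed and overlapped, then *Ptges* (3.80 ± 0.685 TPM) and *Ptger4* (3.80 ± 1.5 TPM), which also overlapped. *Alox5* (1.26 TPM), *Ptgs2* (0.713 TPM) and *Ltb4r1* (0.553 TPM) formed a lower run in which each neighbour overlapped the next, above *Ptger2* (0.230 TPM) and *Alox15* (0.153 TPM). The order was led by the activating protein of the leukotriene branch, with the inducible cyclooxygenase and the receptors EP2 and BLT1 near the bottom.

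In the GPR174-KO muscles *Ptger4* (8.87 ± 0.627 TPM) came next after *Alox5ap* and did not differ beyond the spread from *Ptgis* (8.63 ± 1.58 TPM), nor *Ptgis* from *Ptgs1* (7.95 ± 0.91 TPM). *Ptges* (6.66 ± 0.194 TPM) and *Alox5* (4.38 ± 0.105 TPM) each stood apart from their neighbours. *Ltb4r1* (1.23 TPM), *Ptgs2* (1.13 TPM) and *Ptger2* (0.880 TPM) overlapped in turn, and *Alox15* (0.197 TPM) was again lowest. *Ptger4* and *Ptges*, which overlapped in the WT muscles, did not overlap in the GPR174-KO muscles, with ranges of 8.21 to 9.46 and 6.44 to 6.79 TPM, and this change of order was not tested.

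**Figure D2:**
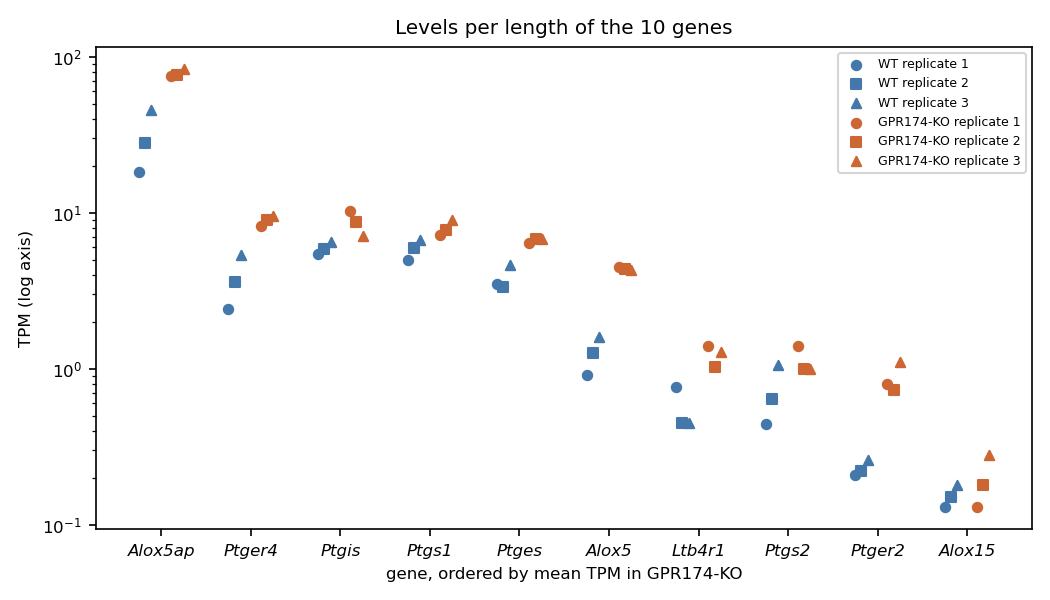
Level per length (TPM, log axis) of the 10 genes in each library, ordered by the GPR174-KO mean, with WT in blue, GPR174-KO in orange and replicates 1, 2 and 3 as circles, squares and triangles. *Alox5ap* lies between 18.3 and 83.3 TPM, above every other gene in each library, and *Alox15* lies lowest on average, between 0.13 and 0.28 TPM.

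The wider pathway was mixed in direction. Of 43 further eicosanoid genes in the table, 32 passed the filter and 22 of these changed, 12 higher and 10 lower, beside 54.6% of all tested genes. Their median log2 fold change was 0.01. The count of 22 fell to 10 without WT replicate 2, to 12 without GPR174-KO replicate 1, to 9 without GPR174-KO replicate 2 and to 0 with replicates 1 and 3 of each group alone, where 8 had an unadjusted p under 0.05 by edgeR. With total counts in place of TMM 13 were higher and 3 lower, beside 7303 higher and 2010 lower of all 14395 genes tested. *Akr1b3* and *Ggt5*, called lower with TMM, then turned to log2 fold changes of 0.01 and 0.03. Past a log2 fold change of 1 were *Ptgds*, *Dpep2* and *Ltb4r2*. *Ptgds*, a prostaglandin D2 synthase, had 0.996, 0.952 and 0.787 CPM in WT replicates 1, 2 and 3 and 3.30, 2.78 and 2.47 CPM in GPR174-KO replicates 1, 2 and 3 (log2 fold change 1.64, SE 0.186, adjusted p = 0.00116). *Dpep2*, a dipeptidase that can turn leukotriene D4 into leukotriene E4, had 3.98, 7.62 and 11.1 CPM against 20.6, 21.8 and 24.9 CPM (1.56, SE 0.294, adjusted p = 0.00498). *Ltb4r2*, the gene of the low-affinity leukotriene B4 receptor BLT2, went down, from 1.12, 1.01 and 1.12 CPM to 0.573, 0.471 and 0.558 CPM. Its log2 fold change was -1.01 (SE 0.19, adjusted p = 0.00482), -0.99 with upper-quartile scaling and -0.74 with total counts. No lower gene of the wider list passed both thresholds with either scaling, by DESeq2's Wald test or without WT replicate 1. Counts were few, 18, 17 and 20 against 12, 10 and 12 for *Ltb4r2*, and 16, 16 and 14 in the WT libraries for *Ptgds*. In none of these 3 genes did the groups overlap.

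By role, all 3 tested phospholipase A2 genes changed, 1 higher and 2 lower. Of the lower genes, *Pla2g2d* had a log2 fold change of -0.94 (adjusted p = 0.0143), and -0.67 with total counts (adjusted p = 0.0294). The most abundant, *Pla2g6*, had a log2 fold change of -0.28 (adjusted p = 0.0439), a call lost with upper-quartile scaling (adjusted p = 0.0564) and with total counts (-0.01, adjusted p = 0.96), and *Pla2g4a*, the cytosolic enzyme that releases arachidonic acid on calcium signals, rose by 0.64 on the log2 scale (adjusted p = 0.00957). Of 8 other prostanoid synthases, 4 rose and 3 fell with TMM, and 4 were higher and 0 lower with total counts. The synthases that rose were *Ptgds*, *Tbxas1*, *Hpgds* and *Ptges3*. The most abundant of the group, *Akr1b3*, fell by 0.27 on the log2 scale (adjusted p = 0.0283), though not with total counts (0.01, adjusted p = 0.906). *Prxl2b* fell most, by 0.59 with TMM (adjusted p = 0.0207), and had -0.31 with total counts (adjusted p = 0.0901). *Tbxas1*, the thromboxane synthase, rose by 0.84 (adjusted p = 0.00124) and *Hpgds*, the hematopoietic prostaglandin D2 synthase, by 0.79 (adjusted p = 0.00577). *Ptges2*, the second membrane-bound PGE2 synthase, fell by 0.49 with TMM (adjusted p = 0.018), opposite to *Ptges*, and had -0.22 with total counts (adjusted p = 0.112). Of the genes so far, *Ggt5*, *Pla2g2d*, *Pla2g4a*, *Tbxas1*, *Hpgds*, *Ptges3*, *Prxl2b* and *Ptges2* were named after their values were seen. In the next paragraphs *Ptgir*, *Ptger1*, *Ptger3*, *Ptgr1*, *Hpgd*, *Ltc4s* and *Dpep1* were also named after their values were seen.

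Among 4 tested prostanoid receptors other than EP2 and EP4, the most abundant in TPM, *Tbxa2r*, the thromboxane receptor, had a log2 fold change of -0.03 with TMM (adjusted p = 0.881) and 0.25 with total counts (adjusted p = 0.0877). *Ptgir*, the prostacyclin receptor, was higher (0.36, adjusted p = 0.0489), though its adjusted p was 0.0515 with DESeq2 size factors. *Ptger1*, which encodes EP1, was lower (-0.34, adjusted p = 0.0431), a call lost with upper-quartile scaling (adjusted p = 0.0559) and with total counts (-0.07, adjusted p = 0.641). *Ptger3*, which encodes EP3, had 7 to 10 counts in every library and was removed by the filter. Of 5 genes of prostaglandin transport and breakdown, *Ptgr1* rose and *Ptgr2* fell, and the other 3 did not pass the test, among them *Hpgd*, the enzyme that inactivates PGE2 (log2 fold change -0.17 with TMM and 0.10 with total counts, adjusted p = 0.4 and 0.524). *Ptgr2*, a reductase and the most abundant of the group, fell by 0.49 on the log2 scale (adjusted p = 0.00184).

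Downstream of *Alox5*, 5 of 6 tested leukotriene enzymes changed with TMM, 3 higher and 2 lower, whereas 3 were higher and 0 lower with total counts. The lower calls were those of *Ggt5* and *Dpep1*, and *Dpep1* went from -0.31 (adjusted p = 0.00782) to -0.03 with total counts (adjusted p = 0.591). *Lta4h*, the hydrolase that makes leukotriene B4 and the most abundant of the group, rose by 0.17 on the log2 scale (adjusted p = 0.0388). *Ltc4s*, which makes leukotriene C4, had a log2 fold change of 0.05 (adjusted p = 0.79). *Cysltr1*, a receptor of the cysteinyl leukotrienes, rose by 0.59 (adjusted p = 0.037). Of the other lipoxygenases 0 of 2 tested passed, with 1 of them, *Alox12*, at an unadjusted p under 0.05 by edgeR (log2 fold change -0.41, adjusted p = 0.0804), and *Cmklr1*, a resolvin E1 receptor, rose by 0.40 (adjusted p = 0.012).

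**Figure D3:**
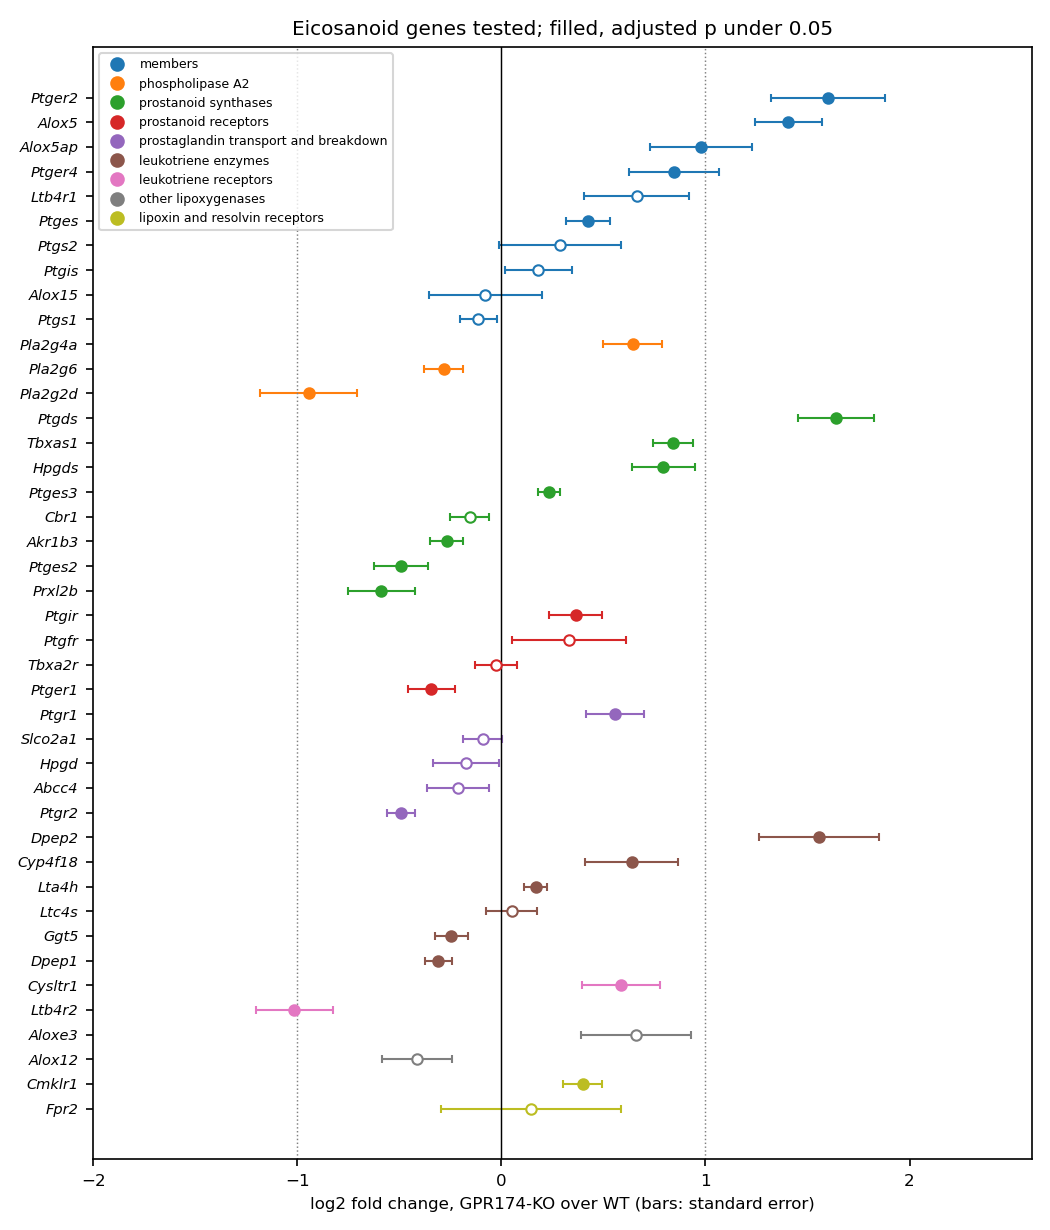
Log2 fold change, GPR174-KO over WT, with its standard error (bars) for the 10 genes and the 32 tested genes of the wider list, coloured by role, where filled points have an adjusted p under 0.05 and dotted lines mark a log2 fold change of 1 in each direction. All 5 filled points of the 10 genes lie to the right of 0, whereas the filled points of the wider list lie on both sides, 12 right and 10 left with TMM, of which *Akr1b3* and *Ggt5* turn to the right with total counts.

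Markers of macrophages and monocytes, cells known to express several of the 10 genes, were higher in the same libraries. The macrophage and monocyte sum per library was 271, 369 and 511 TPM in WT replicates 1, 2 and 3 and 936, 1010 and 1092 TPM in GPR174-KO replicates 1, 2 and 3, with *Cd68*, *Adgre1*, *Csf1r*, *Itgam*, *Cd14*, *Mrc1* and *Ccr2* higher and *Ly6c2* not past the test. *Alox5ap* expressed as a percentage of this sum was 7.76 ± 1.08% (SD, n = 3) in WT and 7.74 ± 0.238% in GPR174-KO muscles, and the groups overlapped. *Alox5* was 0.331 ± 0.0162% against 0.435 ± 0.0438%, with each GPR174-KO library above each WT library, and *Ptger4* was 0.973 ± 0.0836% against 0.876 ± 0.00891%, with each GPR174-KO library below each WT library. For *Ptger4* the groups nearly touched, with WT replicate 1 at 0.886% and GPR174-KO replicate 2 at 0.884%. *Ptger2* overlapped at 0.0627 ± 0.0136% against 0.0865 ± 0.0147%. *Ptges* (1.03% against 0.660%), *Ptgs1* (1.58% against 0.784%), *Ptgs2* (0.181% against 0.113%), *Ptgis* (1.61% against 0.863%) and *Alox15* (0.0413% against 0.0191%) were lower in each GPR174-KO library than in each WT library on this scale, and *Ltb4r1* overlapped. These percentages were chosen after the values were seen, rest on 8 marker genes that also vary per cell, and carry no test.

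**Figure D4:**
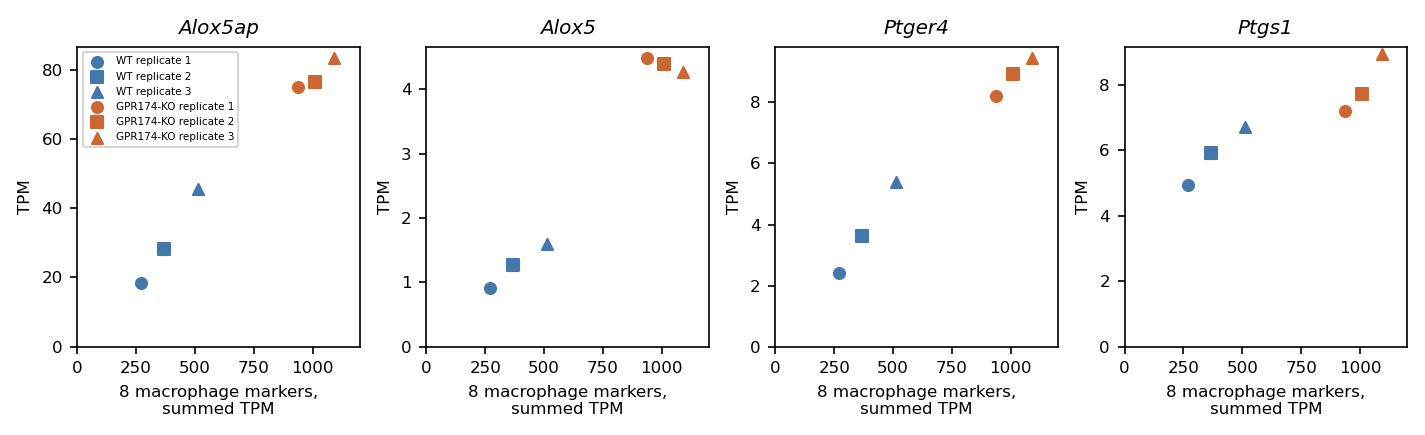
Level (TPM, vertical axes) of *Alox5ap*, *Alox5*, *Ptger4* and *Ptgs1* in each library against the summed TPM of 8 macrophage and monocyte markers (horizontal axes), with WT in blue and GPR174-KO in orange. WT libraries lie at 271 to 511 and GPR174-KO libraries at 936 to 1092 TPM of markers. *Alox5ap*, *Ptger4* and *Ptgs1* are higher where the marker sum is higher in all 6 libraries, while *Alox5* falls slightly across the 3 GPR174-KO libraries. The summed neutrophil markers (17.6 to 90.2 TPM) and T cell markers (8.12 to 21.5 TPM) rise over the 6 libraries in the same order.

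Markers of neutrophils, a classic source of leukotriene B4, differed widely in level. *Ly6g* was at 0 counts in 5 libraries and at 1 count in GPR174-KO replicate 3, *S100a8* had 4 to 15 counts and *S100a9* 4 to 12 counts per library, while *Csf3r* had 239 to 653 counts (14.9 to 30.4 CPM) and *Cxcr2* 76 to 103 counts (3.58 to 6.16 CPM). Of the 8 neutrophil markers 4 were tested, with *Csf3r*, *Mmp8* and *Mmp9* higher and *Cxcr2* lower (*Cxcr2* at an adjusted p of 0.109 with total counts). *Mmp8* entered the test only through the GPR174-KO libraries, with 21, 25 and 29 counts. Its WT counts of 3, 2 and 3 were at or below the smallest detectable number. With the filter removed its log2 fold change was 2.86 (adjusted p = 0.000696). The summed level of the 8 markers was 17.6 to 34.1 TPM in the WT libraries and 85.3 to 90.2 TPM in the GPR174-KO libraries. Of this, *Mmp9*, also made by macrophages, held a mean of 57.8 TPM in the GPR174-KO libraries. Of 6 tested mast cell markers 5 were lower with TMM, and 3 were lower and 1, *Kit*, higher with total counts, with summed levels of 34.3 to 54.9 TPM in the WT libraries and 29.4 to 38.7 TPM in the GPR174-KO libraries, which overlapped. None of the 3 eosinophil markers in the table reached the filter (summed level 0.63 to 2.10 TPM over the 6 libraries), and 1 of 3 tested platelet markers, *Pf4*, was higher. The platelet markers *Itga2b* (log2 fold change -0.17, adjusted p = 0.41) and *Gp1bb* (0.46, adjusted p = 0.114) did not pass with TMM. The T cell markers, 0 of 4 past the test by edgeR with 1 at an unadjusted p under 0.05, summed to 8.12 to 15.4 TPM in the WT libraries and 18.3 to 21.5 TPM in the GPR174-KO libraries. Fibroblast and smooth muscle markers were mixed, with 2 higher and 3 lower of 6 fibroblast markers and 3 higher and 2 lower of 6 smooth muscle and pericyte markers, where the fibroblast marker *Pdgfra* (-0.21 with TMM) turned to 0.07 with total counts. With total counts 2 platelet markers and 2 T cell markers were higher, and 3 fibroblast markers were higher and 2 lower. Whether any of these cell types carries the differences in the 10 genes was not tested.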

How the data were processed

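Ischemic muscle RNA of 3 WT and 3 GPR174-KO mice was sequenced on the BGISEQ-500 platform by the methods. The authors deposited, for 58843 RefSeq transcripts, expected counts (estimated reads per transcript, not normalized) with FPKM and TPM for each library, scaled for transcript length and depth. The submitters' processing notes name HISAT2 2.0.4, Bowtie2 2.2.5, RSEM 1.2.12 and build GRCm39. Strand use is not given in the sources used here. The averages per group that the table also holds were left out.

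Samples were grouped by the genotype in the labels, with 0 per-sample columns left over. Expected counts were summed per gene, rounded and compared with edgeR 4.0.16 in R 4.3.3 across all 14395 genes that passed its filterByExpr step, using TMM scaling and a robust quasi-likelihood F-test. P-values were adjusted by Benjamini-Hochberg. The thresholds, taken from the study, were 0.05 for the adjusted p and, separately, 1 for the absolute log2 fold change. The study used DEGseq. Here edgeR was used, which models the spread between replicates. Every adjusted p of a gene is from this fit unless another is named. SE is the log2 fold change over the square root of F, and intervals are 95%. Ratios were compared with a 2-sided exact permutation test. Each library is taken as 1 mouse, by the methods, though whether replicate 2 of each group is independent could not be settled, and p-values measure the spread between these libraries. Same-numbered libraries are different mice, and their deviations from the group means correlated at 0.0163, -0.0281 and -0.0084, so no block was used. The fits were also run on simulated data in which few genes changed and no scaling shift was put in. That setting differs from these libraries, so the run cannot judge the choice of scaling.

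The 10 genes, the wider list, the marker lists and the motifs were chosen with earlier results of these data known. Genes named are the 10, wider-list genes past both thresholds, the gene with the highest mean TPM in each role group, *Gpr174*, markers given beside a result and those the text says were named after their values were seen. Symbols matched 99.7% of genes. *Tpsab1*, *Epx*, *Ear1* and *Trac* of the marker lists were not analysed here. Start-site windows are from RefSeq on GRCm38.p6, a different build from that of the files.

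Alternatives were scaling by DESeq2 1.42.0, upper-quartile or total counts, the DESeq2 Wald test, voom from limma 3.58.1, the edgeR fit with the filter removed or set to 10 counts per library, and limma on log2 FPKM with a pseudocount of 1 or 0.1 (genes at 1 FPKM or more in 3 libraries). Further ones were a replicate block, each library left out, and replicates 1 and 3 alone. For the ratios, counts and FPKM replaced TPM.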

Additional observations from a re-analysis of the deposited data

How the results depend on the processing

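Of the 10 genes, *Ltb4r1* (8 to 21 counts per library) and *Ptger2* (6 to 34) had the fewest counts over the 6 libraries. Of the comparisons' values under the alternatives, 108 stayed within 1.5 times the count or kept their direction, and 18 moved. Of the values of single genes, 137 kept direction and side of the threshold, 6 reversed, 12 lost the threshold and 5 gained it. The causes were not tested.

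On replicates 1 and 3 alone, which leaves 4 libraries, edgeR called 0 of the 14447 genes tested in that fit, 0 of the 10 genes and 0 of the wider list, with or without the fold threshold, while 5026, 2 and 8 had an unadjusted p under 0.05. DESeq2's Wald test on all 6 libraries called 5 of the 10 genes. Leaving out each library in turn gave 2 to 6 of the 10 genes called (2 without WT replicate 2, 3 without GPR174-KO replicate 2 or 3) and 2 to 4 also past the fold threshold (4 without WT replicate 3). In the wider list it gave 9 to 24 genes (10 without WT replicate 2, 12 without GPR174-KO replicate 1, 9 without GPR174-KO replicate 2) and 2 to 4 past the fold threshold, and among all genes 5457 to 9165 and 924 to 1826 (1826 without WT replicate 3). Among the 10 genes, the count past both thresholds was 4 with total counts, 1 with at least 10 counts in every library, which left 8 of the 10 genes to test, and 1 on log2(FPKM + 1), which left 6, *Ptger2* being removed in both, where 645 of all genes passed both against 1192 in the TMM fit.

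Total counts moved the median log2 fold change up by 0.27. *Ptgs1* reversed to 0.16 with total counts, 0.25 on log2(FPKM + 1) and 0.32 on log2(FPKM + 0.1). *Alox15* reversed to 0.19 with total counts, 0.02 without WT replicate 3 and 0.13 without GPR174-KO replicate 1, in a range of -0.39 to 0.13 over the libraries left out. *Ptgis* passed the test with total counts (0.45) and on both FPKM scales (0.33 and 0.41). *Ltb4r1* did so with total counts (0.93) and without WT replicate 1 (0.87). *Ptges*, *Ptger4* and *Alox5ap* lost the threshold without single libraries, and all 5 called genes did so with replicates 1 and 3 alone. The 3 ratios kept their direction under every alternative run, with log2 differences of 0.07 to 0.53 for *Ptgs2* to *Ptgs1*, -0.49 to -0.24 for *Alox5ap* to *Alox5* and -0.85 to -0.42 for *Ptger4* to *Ptger2*.

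The replicate number does not pair these mice. With a replicate block the calls were 5 of the 10 genes (3 past the fold threshold, *Alox5ap* then at 1.04), 17 of the wider list (3 past the fold threshold) and 6812 of all genes (1139 past the fold threshold), and the block changed no call among the 10 genes.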
